A study of Bos taurus with 11 samples.

Results

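The genes of the replicative helicase were followed in single bovine blastocysts in which GATA3 or CDX2 had been targeted. They were chosen by symbol, through the RefSeq accessions of the deposited tables, and the set holds 10 genes: MCM2, MCM3, MCM4, MCM5, MCM6, MCM7, GINS1, GINS2, GINS4 and CDC45. Of these, 8 have a row in each table, out of the 8576 transcripts that the GATA3 KO table holds and the 12047 of the CDX2 KO table. MCM2 and GINS2 were not analysed here. The RefSeq annotation of ARS-UCD2.0 gives them predicted (XM) accessions alone, and 0 rows of either table carry such an accession. GINS3, a further GINS gene, is outside the set. It was read with the other replication genes, and its groups overlapped in both tables.

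The replicative helicase unwinds DNA ahead of the polymerases during S phase. The MCM2 to MCM7 proteins form a ring that is loaded onto origins before S phase, and CDC45 and the GINS proteins join the ring when an origin fires, which turns it into the active enzyme known as CMG. Cells of the cleaving embryo and the blastocyst divide rapidly, and transcripts of these genes are typical of proliferating cells.

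Each library came from a single early blastocyst of day 7 whose zona pellucida had been removed. The WT control group had 3 embryos, and GATA3 KO and CDX2 KO had 4 each. All of them had been injected as zygotes with mRNA of BE3, a cytosine base editor, so the WT control embryos carry the editor too. The KO embryos also received a mix of sgRNAs against GATA3 or CDX2, meant to create premature stop codons. The labels name the knockout and give no genotype for each embryo. The paper reports that Sanger sequencing of cDNA showed the editing of both genes for this experiment. An embryo edited after the zygote stage can still hold edited and unedited cells. Since a whole blastocyst was lysed, fewer cells in S phase and less RNA per cell cannot be told apart.

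The deposited value is a normalized count, that is, a count divided by the size factor of its library, and each knockout has a table of its own that repeats the 3 WT control embryos. Whole counts could be recovered from it, and they totalled 150057 to 540775 per embryo in the table of GATA3 KO and 100731 to 662962 in that of CDX2 KO, the lowest being CDX2 KO embryo 3. Counts of the WT control embryos were 1.78 to 1.85 times larger in the table of CDX2 KO over the 8567 transcripts that both list, so normalized counts were compared within a table only. The reason is not given in the sources used here, so a count may not be an independent fragment, and counting intervals and floors may be too narrow. The normalized count of GATA3 itself averaged 79.9 ± 8.17 (SD, n = 3) among WT control embryos, and after its targeting 12.2 ± 1.58 (SD, n = 4). That of CDX2 averaged 8.94 ± 2.09 (SD, n = 3) among WT control embryos, and after its targeting 3.57 ± 1.34 (SD, n = 4). CDX2 also lay lower without overlap in GATA3 KO embryos, where it was not targeted (0 to 3.45, against 4.66 to 9.73). In CDX2 KO embryos its values, 1.66 to 4.66, were close to the floor of 3 counts, 1.61 to 6.99. The mean of CDX2 was under 10 in both tables, so neither fall was tested. Of 10 trophectoderm markers the table of GATA3 KO has 9, whose sum overlapped between WT control (3589 to 8218) and GATA3 KO embryos (4056 to 5769). Within this list GATA2 was lower in all GATA3 KO embryos (42.0 to 83.4, against 110 to 143) and TFAP2C higher (97.0 to 123, against 40.0 to 71.0). The 6 epiblast markers summed to 167 to 191 in WT control and 106 to 202 in GATA3 KO embryos, with SALL4 lower (11.9 to 25.5, against 35.7 to 49.7) and DPPA2 higher (15.5 to 37.0, against 3.11 to 9.47) in all GATA3 KO embryos. The 3 listed of 9 cumulus cell markers summed to 23.3 to 33.9 in WT control and 8.68 to 12.1 in GATA3 KO embryos, with PTX3, HAS2 and TNFAIP6 not listed. The part of these markers in the results was not tested.

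In GATA3 KO embryos the helicase genes did not move together. MCM6 and GINS1 rose 3.18- and 2.25-fold in mean normalized count, and for both genes the GATA3 KO and WT control embryos formed separate ranges. MCM5 and CDC45 lay lower in all 4 GATA3 KO embryos than in any WT control embryo, at 0.63 and 0.52 of the WT control mean, but neither difference was called. For MCM3, MCM4, MCM7 and GINS4 the groups overlapped. Each gene was tested with limma on log2(normalized count + 1), which understates the change of low genes, once transcripts averaging under 10 had been set aside. The 6 helicase genes that remained are MCM3 to MCM7 and GINS1. To be called, a gene needed a p-value no higher than 0.05 after Benjamini-Hochberg adjustment, together with a rise to 1.5-fold or more or a fall to 0.6-fold or less. Of all 4271 transcripts tested, 2.01% were called and 1.55% were called higher in GATA3 KO. The split of 66 higher and 20 lower was 48 and 57 with quantile normalization and 56 and 53 with median ratios, which change the scaling alone. It was 55 and 71 with edgeR and 72 and 86 with DESeq2, which also change the model and use the recovered counts. WT control and GATA3 KO were fully apart for 4 of the 8 helicase genes, and for 17.3% of all transcripts listed, 7.07% with GATA3 KO higher and 10.2% with GATA3 KO lower.

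**Figure D1:**
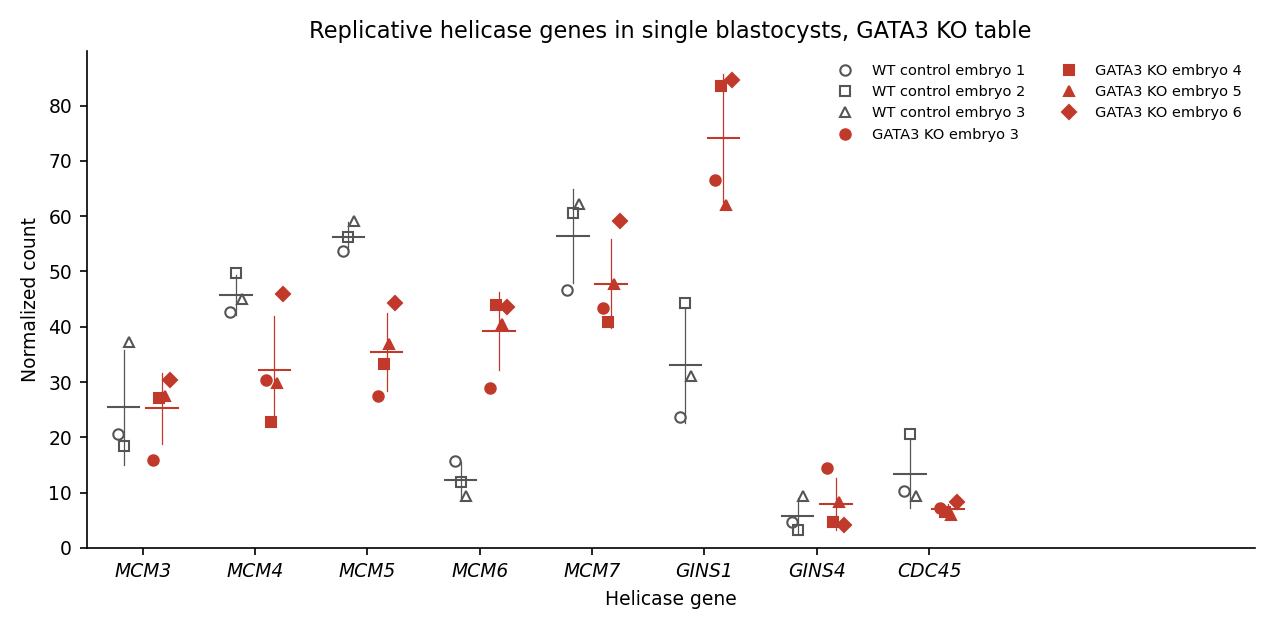
Normalized count (vertical axis) of the 8 helicase genes (horizontal axis) in each embryo of the table of GATA3 KO, with a horizontal bar at the group mean and a vertical line of 1 SD on either side. MCM6 and GINS1 separate upward and MCM5 and CDC45 downward, and since values are not adjusted for transcript length they compare within a gene only.

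MCM6 (NM_001046234), a subunit of the MCM ring, had normalized counts of 15.8, 11.9 and 9.33 in WT control embryos 1 to 3. Among GATA3 KO embryos, numbered 3 to 6, it had 28.9, 43.9, 40.5 and 43.5. The lowest GATA3 KO embryo was thus above the highest WT control embryo, and embryo 3 was the lowest of the 4. These values rest on 6 to 20 recovered counts per WT control embryo, and on 20 to 102 per GATA3 KO embryo. On the log2 scale MCM6 rose by 1.6 (standard error 0.30, 95% interval 0.97 to 2.23, adjusted p = 0.0161 from limma), or 1.49 relative to the median of all transcripts tested, 0.11. It stayed between 1.43 and 1.78 whichever embryo was removed. The adjusted p from limma rose above the threshold in 4 of these 7 fits, to 0.0862 without WT control embryo 2, 0.0564 without WT control embryo 3, 0.0572 without GATA3 KO embryo 3 and 0.0506 without GATA3 KO embryo 4. It passed with edgeR (adjusted p = 0.0220) and with DESeq2 (adjusted p = 0.0127) on the recovered counts.

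GINS1 (NM_001083701), a subunit of the GINS complex, was at 23.7, 44.3 and 31.1 in WT control embryos 1 to 3. It was at 66.6, 83.6, 61.9 and 84.6 in GATA3 KO embryos 3 to 6. WT control embryo 2 came nearest to the GATA3 KO embryos, and embryos 4 and 6 were the highest. On the log2 scale GINS1 rose by 1.18 (standard error 0.28, 95% interval 0.60 to 1.75, adjusted p = 0.0344 from limma), or 1.06 relative to the median of all transcripts tested. Removing any embryo kept it between 0.97 and 1.40. The call was lost in 5 of these 7 fits, with adjusted p from limma of 0.0862 without WT control embryo 2, 0.0824 without WT control embryo 3, 0.0871 without GATA3 KO embryo 3, 0.115 without GATA3 KO embryo 4 and 0.0545 without GATA3 KO embryo 5. The adjusted p was 0.0365 with DESeq2, 0.0501 with edgeR, 0.0670 with limma after quantile normalization and 0.0927 with limma without a trended prior.

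GATA3 KO embryo 6 differs from the other GATA3 KO embryos in holding 68 Y-linked counts, against 0 to 2, while all 3 WT control embryos held Y-linked counts (29 to 98). Its values of 43.5 for MCM6 and 84.6 for GINS1 exceeded those of all WT control embryos. With a term for Y-linked counts, the fit compares embryo 6 alone with WT control, since no other GATA3 KO embryo held more than 3. In that fit MCM6 was at 1.77 and GINS1 at 1.38 on the log2 scale. For the other GATA3 KO embryos, knockout and Y-linked status cannot be told apart.

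**Figure D2:**
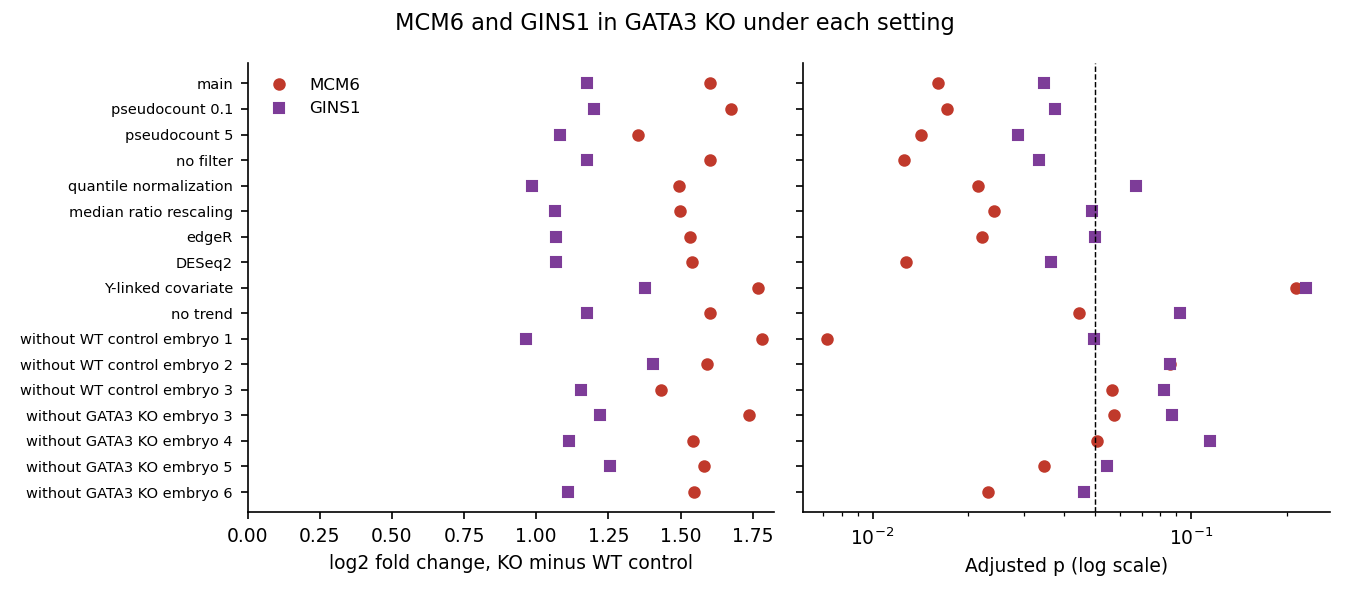
Log2 fold change in GATA3 KO (left) and adjusted p on a log axis (right, dashed line at 0.05) of MCM6 and GINS1 for each way of processing and each embryo left out, one setting per line. The fold changes stay above 0.9 throughout, while the adjusted p crosses the line in 5 of the settings for MCM6 and 9 for GINS1. Among these settings, the Y-linked covariate compares GATA3 KO embryo 6 alone with WT control.

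Of the other ring subunits, MCM5 (NM_001075290) had the narrowest spread in WT control, at 53.7, 56.2 and 59.1 in embryos 1 to 3. The GATA3 KO embryos 3 to 6 had 27.5, 33.2, 36.9 and 44.3. All 4 lay below the lowest WT control embryo, with embryo 6 the nearest to it. Its log2 fold change was -0.67 (standard error 0.26, 95% interval -1.22 to -0.12, adjusted p = 0.151 from limma), and it stayed between -0.78 and -0.56 with each embryo left out. With the Y-linked covariate, which sets embryo 6 alone against WT control, it was -0.34. MCM4 (NM_001075158) had 42.6, 49.7 and 45.1 in WT control and 30.4, 22.8, 29.8 and 46.0 in GATA3 KO embryos. Here embryos 3 to 5 lay below every WT control embryo and embryo 6 lay within their range. The log2 fold change of MCM4 was -0.53 (95% interval -1.13 to 0.06, adjusted p = 0.274 from limma). MCM7 (NM_001025345) had 46.6, 60.5 and 62.2 in WT control and 43.4, 40.9, 47.6 and 59.1 in GATA3 KO embryos, with embryos 5 and 6 inside the WT control range. Its log2 fold change was -0.24 (95% interval -0.78 to 0.31, adjusted p = 0.612 from limma). With the Y-linked covariate, so for embryo 6 alone against WT control, MCM4 was at 0.0084 and MCM7 at 0.078. MCM3 (NM_001013586) spanned 18.4 to 37.3 among WT control and 15.9 to 30.4 among GATA3 KO embryos, at a log2 fold change of 0.02 (95% interval -0.67 to 0.71, adjusted p = 0.978 from limma). The sign of this value turned under both rescalings, edgeR and DESeq2, to between -0.10 and -0.040.

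CDC45 (NM_001024490), the partner that joins the ring with GINS, had normalized counts of 10.3, 20.5 and 9.33 in WT control embryos 1 to 3. The GATA3 KO embryos had 7.24, 6.46, 5.96 and 8.21. The groups did not overlap, although WT control embryo 3 and GATA3 KO embryo 6 were close, and WT control embryo 2 stood above the rest. These are 6 to 19 counts in WT control and 5 to 15 in GATA3 KO. The mean over the embryos was below 10, so CDC45 was left out of the limma fit. The difference in mean log2 was -0.78 (exact permutation test, two-sided, with 35 possible splits, p = 0.029, unadjusted and the smallest p that 3 embryos against 4 allow). GINS4 (NM_001082460) was also below a mean of 10, with 4.73, 3.24 and 9.33 in WT control and 14.5, 4.74, 8.34 and 4.11 in GATA3 KO embryos. The groups overlapped, and the difference in mean log2 was 0.35 (two-sided exact permutation test, p = 0.514).

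The summed counts of the 8 genes overlapped between the groups. In CPM (counts scaled to the same total in every library), they were 863, 1179 and 1126 for WT control embryos 1 to 3. For GATA3 KO embryos 3 to 6 they were 973, 1128, 1055 and 1286. Within this sum the shares of MCM6 and GINS1 did not overlap. MCM6 made up 8.81%, 6.04% and 4.38% of the MCM3 to MCM7 counts in WT control embryos 1 to 3. The share was 19.8%, 26.2%, 22.2% and 19.5% among GATA3 KO embryos. The 95% Wilson intervals, which cover counting error only, touched at 13.2% for WT control embryo 1 and GATA3 KO embryo 3, and did not overlap for any other pair of a WT control and a GATA3 KO embryo. GINS1 made up 10.9%, 16.7% and 11.8% of the counts of all 8 genes in WT control, and 28.4%, 31.8%, 24.0% and 26.4% in GATA3 KO embryos. The intervals of WT control embryo 2 (12.6% to 21.9%) and GATA3 KO embryo 5 (18.8% to 30.1%) overlapped.

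MCM5 made up 32.9%, 30.4% and 29.0% of the MCM3, MCM4, MCM5 and MCM7 counts in WT control, a sum that leaves MCM6 out. The share was 23.5%, 26.7%, 26.1% and 24.7% in GATA3 KO embryos. The shares of MCM5 did not overlap between the groups either, but their intervals did in every embryo. Such shares do not depend on the scaling of the libraries. They were computed for genes whose groups were already apart, and are a description.

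**Figure D3:**
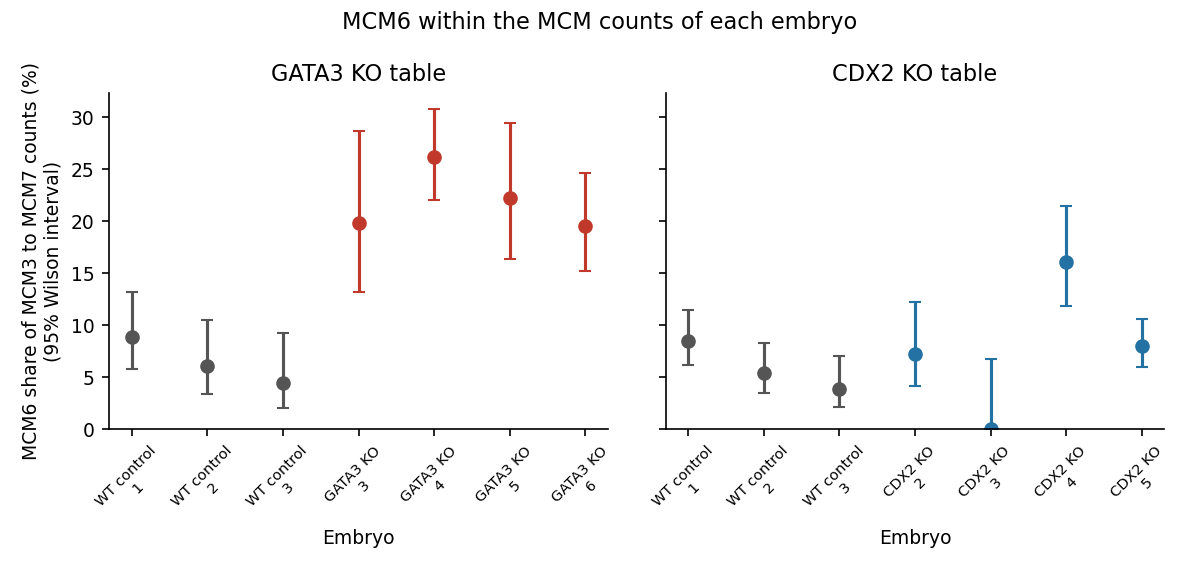
MCM6 as a percentage of the MCM3 to MCM7 counts of each embryo (vertical axis), with 95% Wilson intervals, in the table of GATA3 KO (left) and in that of CDX2 KO (right). GATA3 KO embryos sit between 19.5% and 26.2% and WT control embryos at 8.81% or less, while among CDX2 KO embryos only embryo 4, at 16.1%, is above the WT control embryos.

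In CDX2 KO embryos none of the 8 helicase genes was called (0 of 8 with limma, edgeR and DESeq2), and 0 of 8 had an unadjusted p under 0.05 from limma. Of all 5719 transcripts tested in this table, 0% were called. Of the markers in this table, GATA2 was lower in all CDX2 KO embryos (60.6 to 125, against 148 to 201 in WT control), as was IFNT2, at 2.54 or less in every embryo. The 7 listed cumulus cell markers summed to 41.9 to 56.5 in WT control and 45.1 to 105 in CDX2 KO embryos, and the 5 listed oocyte markers to 13.3 to 19.7 and 18.3 to 39.6. The sums of trophectoderm and epiblast markers overlapped too, and the part of these markers was not tested. All 8 helicase genes passed the mean of 10 here, GINS4 only through a high value in embryo 3. The groups overlapped for every helicase gene. Over all transcripts listed, 5.74% did not overlap, 3.41% with CDX2 KO higher and 2.33% with CDX2 KO lower. Log2 fold changes were below 0 for 7 of the 8, beside a median of -0.15 over all transcripts tested. GINS4 was above 0, at 0.38, and with edgeR and DESeq2 MCM6 was above 0 as well. The Y-linked covariate sets CDX2 KO embryo 5 alone against WT control. With it MCM3, MCM6 and MCM7 were above 0 (0.41, 0.57 and 0.10) and GINS4 below (-0.058). CDC45 was at 0.10 without CDX2 KO embryo 2.

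**Figure D4:**
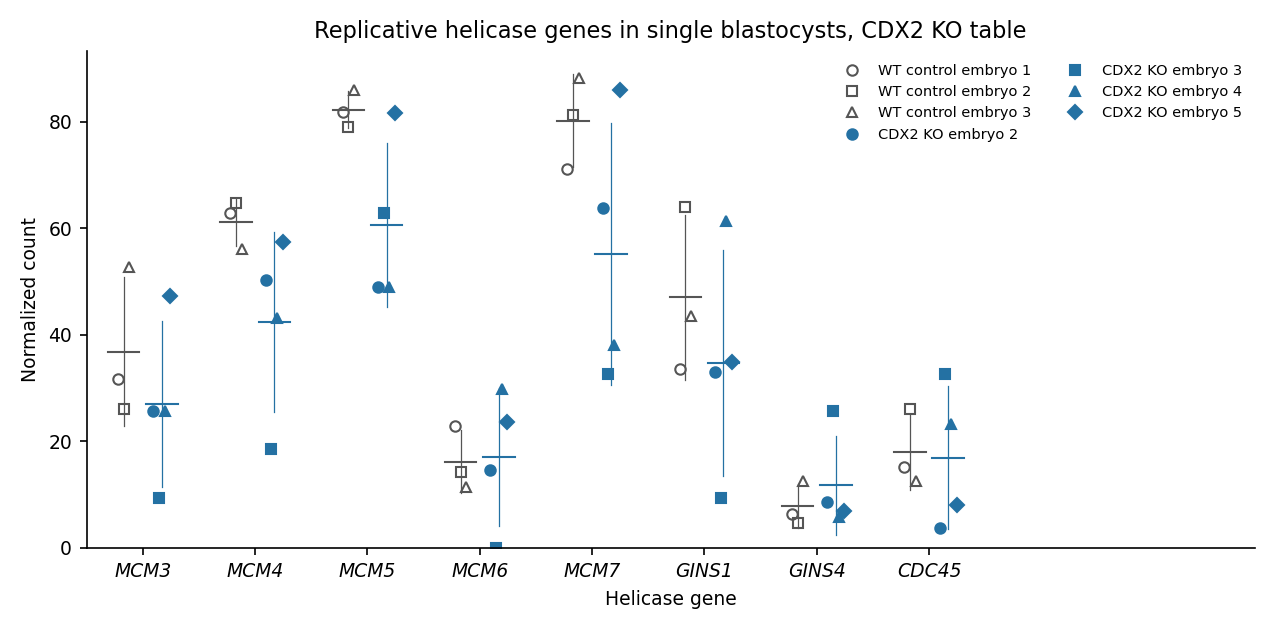
Normalized count (vertical axis) of the 8 helicase genes (horizontal axis) in each embryo of the table of CDX2 KO, with the group mean and 1 SD on either side, to be compared within a gene only. CDX2 KO embryos spread more widely than WT control embryos, with embryo 3 lowest for MCM3, MCM4, MCM6, MCM7 and GINS1.

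MCM6 had 22.8, 14.2 and 11.5 in WT control embryos 1 to 3 of this table and 14.7, 0, 29.9 and 23.6 in CDX2 KO embryos 2 to 5. Embryos 4 and 5 lay above the WT control range, embryo 2 within it and embryo 3 below it. The 0 of embryo 3 allows up to 3 counts, a normalized count of 6.99, in a library of 100731 counts. The resulting log2 difference was -0.66 (standard error 0.97, 95% interval -2.76 to 1.44, adjusted p = 0.928 from limma), and it turned to 0.47 without embryo 3. The mean of CDX2 KO, 17.0, was 1.05 times that of WT control, and the log2 value moved from -1.45 with a pseudocount of 0.1 to -0.22 with a pseudocount of 5. GINS1 had 33.6, 64.0 and 43.6 in WT control and 33.1, 9.32, 61.4 and 34.9 in CDX2 KO embryos. Embryos 2 and 3 were under the WT control range, and embryo 3 rests on 4 counts. Its log2 fold change was -0.64 (95% interval -1.84 to 0.56, adjusted p = 0.90 from limma), and -0.13 without embryo 3.

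For each of the other ring subunits, MCM3, MCM4, MCM5 and MCM7, CDX2 KO embryos 2, 3 and 4 lay below every WT control embryo and embryo 5 lay within their range. Embryo 3 was the lowest for MCM3, MCM4 and MCM7, but next to the highest for MCM5. MCM5 had 81.8, 79.0 and 86.0 in WT control and 49.0, 62.9, 48.9 and 81.6 in CDX2 KO embryos 2 to 5. MCM7 had 71.0, 81.4 and 88.3 in WT control and 63.7, 32.6, 38.1 and 85.9 in CDX2 KO embryos. MCM4 spanned 56.2 to 64.8 among WT control embryos and stood at 50.2, 18.6, 43.1 and 57.4 in CDX2 KO embryos. MCM3 spanned 26.1 to 52.7 among WT control embryos, against 25.7, 9.32, 25.7 and 47.2 in CDX2 KO embryos. Log2 fold changes were -0.57, -0.63, -0.47 and -0.63 for MCM3, MCM4, MCM5 and MCM7 (adjusted p = 0.90 for each from limma). Without embryo 3, the library with the fewest counts, they were -0.16, -0.29, -0.49 and -0.42. Embryo 5 is also the CDX2 KO embryo with Y-linked counts, 155 against 0 in the others.

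CDC45 had 15.2, 26.1 and 12.6 in WT control and 3.68, 32.6, 23.2 and 8.05 in CDX2 KO embryos 2 to 5, so that embryos 2 and 5 were below and embryo 3 above every WT control embryo. Its log2 fold change was -0.41 (95% interval -1.81 to 0.98, adjusted p = 0.933 from limma). GINS4 had 6.34, 4.74 and 12.6 in WT control and 8.58, 25.6, 5.81 and 6.98 in CDX2 KO embryos. Embryo 3 was the only one above the WT control range, on 11 counts. The log2 fold change of GINS4 was 0.38 (95% interval -1.17 to 1.94, adjusted p = 0.937 from limma). In CPM, the 8 genes together were at 854, 1180 and 1121 in WT control and at 928, 814, 791 and 971 in CDX2 KO embryos.

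**Figure D5:**
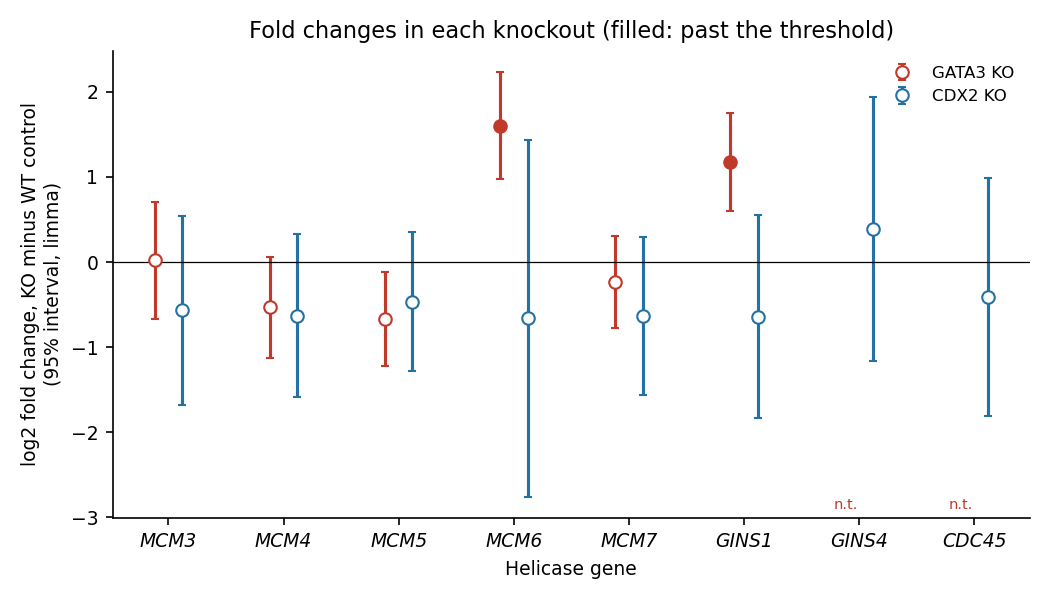
Log2 fold change of each helicase gene (KO minus WT control, vertical axis) with its 95% interval from limma, filled where called, and n.t. where a gene was not tested in GATA3 KO. MCM6 and GINS1 are at 1.6 and 1.18 in GATA3 KO and at -0.66 and -0.64 in CDX2 KO. Without CDX2 KO embryo 3 the sign of MCM6 turns and GINS1 is at -0.13. The intervals of CDX2 KO are the wider for each of the 6 genes tested in both.

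Side by side, GINS1 had a log2 fold change of 1.18 in GATA3 KO and -0.64 in CDX2 KO, where it was -0.13 without embryo 3. MCM6 had 1.6 in GATA3 KO and no stable sign in CDX2 KO, at -0.66 in the main test, 0.20 with edgeR, 0.21 with DESeq2 and 0.47 without embryo 3. A difference between the knockouts was not tested, as the tables were normalized separately and share the WT control embryos.

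Other genes of DNA replication were read from 60 genes written in 6 lists, of which 51 are listed in each table. In GATA3 KO embryos, 35 were tested and 0 were called by limma, edgeR or DESeq2, with 7 at an unadjusted p under 0.05 from limma, beside 965 of all 4271 transcripts. Their median log2 fold change was 0.14, beside 0.11 over all transcripts tested. The clamp and Okazaki list covers the sliding clamp and its loaders, the protein that coats single-stranded DNA, and maturation of the lagging strand. Its 11 tested genes had the highest median of the 6 lists, at 0.64. Of them 9 were above 0, beside 2443 of all 4271 transcripts. The lowest median was -0.48, over the 2 tested genes of the firing list. PCNA, the sliding clamp, averaged 45.1 ± 9.74 (SD, n = 3) without the sgRNAs and 70.8 ± 6.93 (SD, n = 4) in GATA3 KO embryos, without overlap (log2 fold change 0.66, adjusted p = 0.146 from limma). CHTF18, of an alternative clamp loader, lay lower without overlap, at 11.0 to 23.8 in WT control and 1.45 to 7.39 in GATA3 KO embryos, and its mean was too low for the test. Over the 6 lists, 6 of the 51 listed genes were higher and 1 was lower without overlap, beside the 7.07% higher and 10.2% lower of all transcripts given above. RPA2, a subunit of the protein that coats single-stranded DNA, was the nearest to the threshold, with 9.73 to 29.5 among WT control and 37.6 to 52.6 among GATA3 KO embryos (log2 fold change 1.16, adjusted p = 0.0634 from limma). Without WT control embryo 1, RPA2 and TYMS, the thymidylate synthase, were called. RPA2 was then at 1.28 on the log2 scale (limma adjusted p = 0.0472) and TYMS at 1.59 (limma adjusted p = 0.0215). In that fit 304 of all 4259 transcripts were called.

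Of the genes that act on loading of the ring, GMNN, which encodes the licensing inhibitor geminin, averaged 42.2 ± 18.3 (SD, n = 3) among WT control embryos, against 64.4 ± 18.3 (SD, n = 4) for GATA3 KO (log2 fold change 0.66, adjusted p = 0.231 from limma). CDC6, a ring loader, and MCMBP, which binds MCM proteins, had means under 10 in that table, at 9.65 and 6.80 in WT control and 8.25 and 11.2 in GATA3 KO. CDT1 and MCM10 were not analysed here. The 10 polymerase and primase genes tested had a median of 0.02, with 5 above and 5 below 0. In CDX2 KO embryos, 39 of the genes were tested, 0 were called by limma, edgeR or DESeq2, and 1 had an unadjusted p under 0.05 from limma, beside 187 of all 5719 transcripts. Their median log2 fold change was -0.20, beside -0.15 over all transcripts tested, with PCNA at -0.78 and GMNN at -0.94 (adjusted p = 0.90 for both from limma).

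To see which other transcripts followed the called genes from embryo to embryo, deviations from the group means were correlated over the 7 embryos of the table of GATA3 KO, as a description. The transcripts most like MCM6 were COL1A2, KAT14 and CDK4 (Pearson's r of 0.99, 0.99 and 0.98), and 28 of the 4270 others reached 0.9. Those most like GINS1 were MAT2B, SUPT6H and SUPT16H (r of 0.98, 0.97 and 0.97), and 20 reached 0.9. COL1A2 is in the list of cumulus cell markers given above. It spanned 10.9 to 30.0 among WT control and 2.89 to 8.21 among GATA3 KO embryos, so that the groups lay in the opposite order to MCM6. COL1A2 passed the mean of 10 only through WT control. Its 2.89, in GATA3 KO embryo 3, was under the floor of 3 counts for that embryo, 4.34.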

How the data were processed

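Single-blastocyst Smart-seq2 libraries without molecular identifiers were made from polyadenylated RNA. Trimmomatic, HISAT2 (on ARS-UCD1.2), featureCounts and DESeq2 were the tools the authors named for trimming, mapping, counting and group comparison. For each of 2 tables, the deposited signal is the DESeq2 normalized count, and 100% of the values in each column were whole multiples of 1 step (tolerance 0.02), from which counts were recovered. Beside these stand log2 fold changes and standard errors, a Wald statistic (score) and p-values from the authors' own comparison, which were left unused. Each WT control column carries the number of its sample. KO columns could be tied to a group only, and the embryo numbers are those of the columns. The number of unused sample columns was 0. Symbols were looked up by accession in the RefSeq table of ARS-UCD2.0 (98.6% named in each table), and no coordinates are given.

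The main test was limma 3.58.1 (R 4.3.3, trended prior) on log2(normalized count + 1). Within 1 table it covered every transcript whose mean reached 10. Genes below this mean were tested by exact permutation of the embryos (scipy 1.17.1), counting splits with at least as large an absolute difference. Alternatives were other pseudocounts (0.1 and 5), other filters (none, or a mean of 100 or more), quantile normalization, median-ratio rescaling, edgeR 4.0.16, DESeq2 1.42.0, other fold thresholds, a Y-linked covariate (more than 3 Y-linked counts), no trend, and each embryo left out. Code was tested on simulated data. The named genes were the helicase genes, replication genes past the threshold, a fixed few replication genes, the targeted genes and the 3 transcripts most like each called gene. RPA2, TYMS, CHTF18 and the single markers named were chosen after their values were seen. Members, lists and alternatives were chosen with earlier results of these data known. Nothing in the labels ties embryos to separate fertilization batches, so p-values measure the spread between these embryos. The limma intervals rest on the spread between embryos, while the Wilson intervals and the floor of 3 counts (4.53 to 29.8 CPM) cover counting error only.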

Additional observations from a re-analysis of the deposited data

Results flagged for a closer look

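GINS4 reached 25.6 in CDX2 KO embryo 3, while the remaining CDX2 KO embryos had 5.81 to 8.58, a gap larger than Dixon's limit for 4 values. The value rests on 11 counts in the library with the fewest counts of the table. Dixon's limit was applied to 18 sets of 4 KO values in all. It was passed 1 time, where chance gives 0.9.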

How the results depend on the processing

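No paired analysis was possible because the embryos are separate, the labels tie none of them across groups, and the KO columns carry numbers other than those of the labels. In either table the Y-linked covariate compares 1 KO embryo alone with WT control, so only its effect sizes are given. In GATA3 KO, the 2 helicase calls became 1 with quantile normalization, edgeR or no trend (MCM6 in each). At a mean of at least 100 none of the genes could be tested (0 calls). With each embryo left out the number ran from 0 to 2. The 86 calls over all transcripts became 145 with a pseudocount of 5, 172 without a filter, 37 at a mean of at least 100, 158 with DESeq2 and 16 without a trend. With an embryo left out they ran from 1 to 304: 304, 1 and 20 without WT control embryos 1 to 3, and 1, 25, 45 and 187 without GATA3 KO embryos 3 to 6. Calls among the 35 other replication genes ran from 0 to 2 with an embryo left out. MCM6 and GINS1 kept their direction under all alternatives run. The log2 fold change of MCM3 turned to -0.10 with quantile normalization, -0.087 with median ratios, -0.040 with edgeR and -0.057 with DESeq2, and ran from -0.17 to 0.32 with an embryo left out. With the Y-linked covariate MCM4 was at 0.0084 and MCM7 at 0.078. In CDX2 KO, the 0 calls over all transcripts became 1 with a pseudocount of 5, a mean of at least 100, median ratios or edgeR, 2 without a filter or with quantile normalization and 10 with DESeq2, and ran from 0 to 1 with an embryo left out. None was a helicase gene. MCM6 was at 0.20 with edgeR and 0.21 with DESeq2. With the Y-linked covariate MCM3, MCM6, MCM7 and GINS4 were at 0.41, 0.57, 0.10 and -0.058. With an embryo left out, MCM6 ran from -1.18 to 0.47 (0.47 without CDX2 KO embryo 3) and CDC45 from -0.85 to 0.10 (0.10 without CDX2 KO embryo 2), and GINS4 fell under the filter in 2 of 7 fits. The cause of these changes was not tested. Several values rest on few counts, which limits CDC45, GINS4 and, in WT control, MCM6.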

Other observations

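A single KO embryo per table held more than 3 Y-linked counts, GATA3 KO embryo 6 (68) and CDX2 KO embryo 5 (155). It was the highest KO embryo for 6 of the 8 helicase genes in GATA3 KO and for 4 of 8 in CDX2 KO. Over all transcripts with a mean of at least 10 it was the highest KO embryo for 30.2% in GATA3 KO and 31.1% in CDX2 KO, and the difference from these shares was not tested. MCM3, MCM4, MCM5 and MCM7 are the 4 genes for which this held in both tables. In GATA3 KO it stood at 30.4, 46.0, 44.3 and 59.1 for these genes, where the other embryos reached at most 27.4, 30.4, 36.9 and 47.6. In CDX2 KO it stood at 47.2, 57.4, 81.6 and 85.9, where the others reached at most 25.7, 50.2, 62.9 and 63.7. All 3 WT control embryos also held Y-linked counts. Being the highest held in neither table for MCM6 (43.9 in another embryo against 43.5 in GATA3 KO, and 29.9 against 23.6 in CDX2 KO) and GINS4. For GINS1 and CDC45 it held in GATA3 KO but not in CDX2 KO, where another embryo had 61.4 against 34.9 and 32.6 against 8.05. MCM3, MCM4, MCM5 and MCM7 were thus picked for the pattern, which was noticed after the values were seen and rests on 1 embryo per table, and its relation to sex was not tested. CDX2 KO embryo 5 also has the highest total count of its table.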
